A study of Mus musculus with 12 samples.

Results

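The genes described here encode the inhibitory adaptors that surround the kinase Csk and the Src-like adaptor SLAP: Csk, Pag1, Sit1, Sla, Sla2, Dok1 and Dok2. They were taken by symbol from the deposited expression table, which held all 7 of them among 10073 listed genes. The study sorted naive mouse CD4 T cells by their basal T cell receptor (TCR) signalling and sequenced polyadenylated RNA from 12 libraries, 4 populations from each of 3 mice. All cells were CD4+ Foxp3-RFPneg CD44lo, came from spleen and lymph nodes of untreated mice, and received no TCR stimulus. Population D was Nur77-GFPhi Ly6Cneg, C was Nur77-GFPint Ly6Cneg, B was Nur77-GFPint Ly6C+ and A was Nur77-GFPlo Ly6C+. Every mouse, in all 4 populations, carried the transgene Tg(Nr4a1-EGFP)GY139Gsat and the targeted allele Foxp3tm1Flv on a C57/BL6 background, and no age is given. In the transgene, regulatory sequence of Nr4a1, an immediate early gene induced by TCR signalling, drives GFP, so GFP reports recent signalling and not the antigen itself. The Foxp3 allele makes a red reporter that was used to leave out regulatory T cells. Library names join the population letter to the mouse number, D1 being population D of mouse 1.

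Signalling by the TCR begins when the Src-family kinases Lck and Fyn phosphorylate the receptor chains, and Csk holds these kinases in check by phosphorylating their inhibitory C-terminal tyrosine. Csk is cytosolic and is brought to the membrane by adaptors: PAG1 is a transmembrane adaptor that binds Csk once phosphorylated, and SIT1 is a transmembrane adaptor that binds the phosphatase SHP2 and also Csk. SLAP and SLAP2, the products of Sla and Sla2, resemble Src kinases without the kinase domain and recruit the ubiquitin ligase Cbl to active TCR complexes, which lowers receptor levels. DOK1 and DOK2 are scaffolds that bring the Ras inhibitor RasGAP (Rasa1) and the lipid phosphatase SHIP1 (Inpp5d) to phosphorylated complexes.

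Sit1 and Sla2 are the members whose RNA differed most between D and C, and both were lower in D, so the sequence around their transcription starts is shown. The windows run from 250 bases before to 50 bases after the RefSeq start in GRCm38.p6 and were found for 3 of the 7 members (Sit1, Sla2 and Csk). The Sit1 window is chr4:43483660-43483959 and the Sla2 window is chr2:156887172-156887471, both read on the minus strand. Capitals mark GGAAA, the core letters bound by NFAT factors, or its reverse complement.
Sit1: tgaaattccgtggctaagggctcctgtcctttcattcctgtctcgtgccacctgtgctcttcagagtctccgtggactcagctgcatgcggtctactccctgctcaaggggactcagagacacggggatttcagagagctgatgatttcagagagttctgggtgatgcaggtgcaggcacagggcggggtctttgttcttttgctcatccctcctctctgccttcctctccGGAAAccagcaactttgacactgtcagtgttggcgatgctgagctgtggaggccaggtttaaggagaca
Sla2: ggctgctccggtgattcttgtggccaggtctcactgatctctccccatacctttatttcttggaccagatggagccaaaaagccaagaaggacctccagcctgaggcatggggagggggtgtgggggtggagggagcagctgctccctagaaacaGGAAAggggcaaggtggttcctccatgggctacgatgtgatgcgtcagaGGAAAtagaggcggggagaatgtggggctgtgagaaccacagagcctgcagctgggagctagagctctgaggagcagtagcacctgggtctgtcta
GGAAA occurred 1 time in the Sit1 window, 2 times in the Sla2 window, and 3 times and 1 time in the 2 Csk windows. Of 32851 mouse promoter windows of 300 bases, 61.3% hold it on either strand. CAGCTG, an E-box that reads the same on both strands, occurred 1 time for Sit1, 2 times for Sla2 and in neither of the 2 Csk windows, against 16.3% of all windows. GC content was 54.7% for Sit1 and 57.7% for Sla2, and the median of all windows was 52.7%. GGGCGG, the GC box, occurred 1 time for Sit1, not for Sla2 and in 1 Csk window, against 35.7% of all windows. TGTGGT, the Runx core, occurred 1 time for Sla2 only, against 16.8%. The AP-1 letters TGANTCA (7.81% of all windows) and the NBRE letters AAAGGTCA (1.51%) occurred in none of these windows. These matches describe letters only.

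The depth recovered from the values was 6.31 M to 9.07 M reads per library, M standing for 1000000. Cd4 had 223.5 to 249.5 RPKM (reads per kilobase of gene length per 1000000 reads) in the 12 libraries, and the summed level of the 5 T cell markers analysed was 1079.5 RPKM or more. Nr4a1, whose regulatory sequence drives the GFP, had 58.7, 64.7 and 67.8 RPKM in D, 26.3, 28.3 and 23.4 RPKM in C, 36.0, 73.3 and 64.6 RPKM in the libraries labelled B1 to B3, and 57.7, 26.1 and 22.9 RPKM in those labelled A1 to A3. Nr4a1 RNA did not follow the GFP gates throughout: C, labelled GFP-intermediate, lay at the level of A2 and A3, labelled GFP-low, and B2, also GFP-intermediate, exceeded every GFP-high D library. The libraries labelled A1 and B1 stood apart from the other 2 of their populations, A1 being high and B1 low. Ly6c1, a gene for the sorted surface protein Ly6C, had 44.5, 48.4 and 38.2 RPKM in D, 67.0, 66.7 and 59.3 RPKM in C, 50.2, 37.1 and 44.5 RPKM in B, and 63.0, 58.1 and 72.6 RPKM in A. It was thus higher in C, labelled Ly6Cneg, than in B, labelled Ly6C+, with no overlap, which goes against both labels. Its near-identical neighbour Ly6c2 was not analysed here, and how reads of the pair were divided is not known. All libraries are kept under their labels. C3 stands apart in plasma cell and B cell genes. Its 2 analysed plasma cell markers summed to 824 RPKM, against 15.9 to 22.1 RPKM in the other 11 libraries. Its 2 analysed B cell markers summed to 247 RPKM, against 6.69 to 28.2 RPKM. The 4 regulatory T cell markers summed to 34.1 to 43.6 RPKM in D, 8.20 to 13.4 RPKM in C, 10.2 to 41.8 RPKM in B and 9.17 to 45.7 RPKM in A. Cd8b1, the CD8 T cell marker analysed (1 of 2), had 10.2 to 11.2 RPKM in D, 12.7 to 16.0 RPKM in C, 9.94 to 11.5 RPKM in B and 13.3 to 14.6 RPKM in A. Klrd1, the NK cell marker analysed (1 of 4), had 9.35 to 10.1 RPKM in D, 12.0 to 15.5 RPKM in C, 6.70 to 13.1 RPKM in B and 16.4 to 17.0 RPKM in A. Hbb-bs, the erythroid marker analysed (1 of 3), split the libraries within each population. It had 12.7 RPKM in D2, 4.78 RPKM in C2, 14.0 RPKM in B1 and 6.98 RPKM in A1. All other libraries had 79.1 to 111 RPKM of it. The part of these markers in the results was not tested. In bulk samples such as these, fewer cells that use a gene and less RNA of it per cell cannot be told apart.

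The 7 genes lie on different chromosomes, Csk on 9, Pag1 on 3, Sit1 on 4, Sla on 15, Sla2 on 2, Dok1 on 6 and Dok2 on 14. The table gives them the Entrez identifiers 12988 (Csk), 94212 (Pag1), 54390 (Sit1), 20491 (Sla), 77799 (Sla2), 13448 (Dok1) and 13449 (Dok2). They covered a wide range of levels. Averaged over the 12 libraries, Csk had 123 RPKM, higher than 96.8% of the listed genes, while Dok1 had 4.83 RPKM, higher than 21.9% of them. Dok2 (42.0 RPKM), Sit1 (40.6 RPKM), Pag1 (35.9 RPKM) and Sla (34.4 RPKM) lay close together between them, and Sla2 had 19.4 RPKM. Csk was above Dok2, Sla above Sla2 and Sla2 above Dok1 in 12 of 12 libraries. Neighbours in the middle of the order were not separated: Dok2 exceeded Sit1 in 6 of 12 libraries and Pag1 exceeded Sla in 6 of 12. Their order also differed by population, since Dok2 was above Sit1 in each D library (ratios of 1.14, 1.18 and 1.46) and below it in each C library (ratios of 0.736, 0.863 and 0.848).

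**Figure D1:**
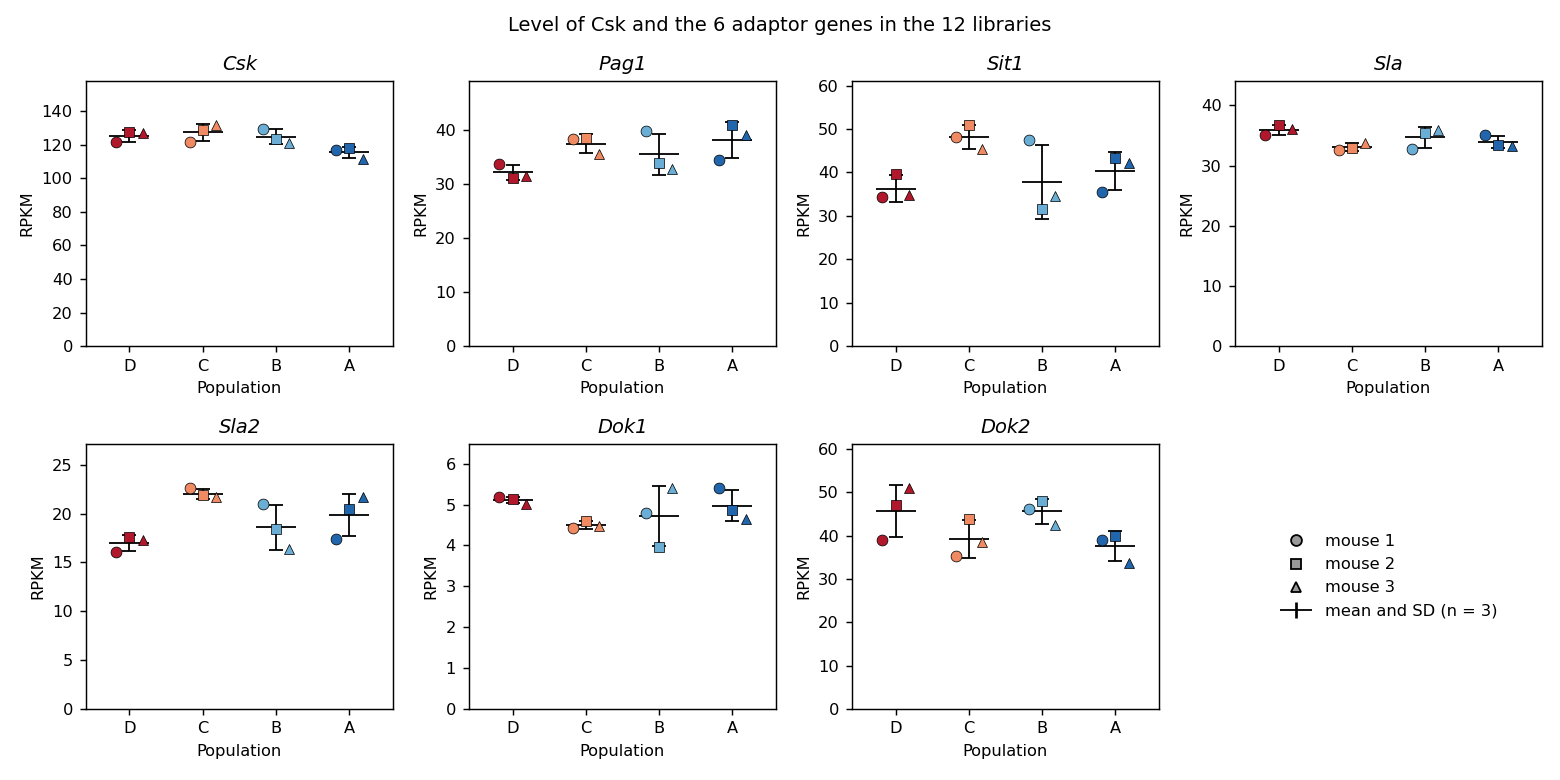
RPKM of the 7 genes (vertical axes, each starting at 0) in the 12 libraries, grouped on the horizontal axis by population D, C, B and A, with a point per library shaped by mouse, a line for the mean of 3 and a bar for the SD. Sit1 and Sla2 are lower in all 3 D libraries than in all 3 C libraries, while Csk spans only 112 to 132 RPKM.

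Csk, the kinase that PAG1 and SIT1 bind, had nearly the same level in D and C. It had 121, 128 and 127 RPKM in D, 121, 129 and 132 RPKM in C, 129.7, 124 and 121 RPKM in B, and 117, 118 and 112 RPKM in A. The D, C and B libraries overlapped, and the 3 A libraries were the lowest of the 12. The log2 difference was -0.02 ± 0.05 (SE) for D minus C (limma, Benjamini-Hochberg adjusted p = 0.846) and 0.14 ± 0.05 for C minus A (adjusted p = 0.237). For B minus A it was 0.11 ± 0.05 (adjusted p = 0.176), and Csk was higher in B than in A in 3 of 3 mice. Csk has a transcript GC content of 60.1%, against a median of 49.4% for the genes tested, and after a GC and length trend was removed from each library its B minus A difference was -0.02 and its D minus A difference 0.03, against 0.12 before. No difference in Csk passed the test in any pair of populations.

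The membrane adaptors that bind Csk were lower in D than in C, as were the CD8 and NK cell markers Cd8b1 and Klrd1, while the summed regulatory T cell markers were higher, each without overlap. Sit1 had 34.3, 39.7 and 34.9 RPKM in D, 48.1, 50.9 and 45.3 RPKM in C, 47.5, 31.5 and 34.6 RPKM in B, and 35.4, 43.3 and 42.2 RPKM in A. All 3 C libraries lay above all 3 D and all 3 A libraries, and the library labelled B1 stood with C while B2 and B3 stood with D. Its mean was 36.3 ± 3.00 RPKM in D and 48.1 ± 2.78 RPKM in C (SD, n = 3 each), 24.6% lower in D. Pag1 had 33.9, 31.2 and 31.6 RPKM in D, 38.5, 38.6 and 35.6 RPKM in C, 39.9, 33.9 and 32.8 RPKM in B, and 34.5, 40.98 and 39.1 RPKM in A. The D libraries lay below all C and all A libraries, with the library labelled A1 the lowest of the A group. Its mean was 32.2 ± 1.44 RPKM in D and 37.5 ± 1.72 RPKM in C (SD, n = 3 each), 14.2% lower in D. In GENCODE M21, Pag1 shares 28536 bases with the long noncoding RNA gene Gm16337 on the opposite strand. It also shares 109 bases with the rRNA gene Gm24786 on its own strand. Neither is among the listed genes.

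The SLAP pair differed in opposite directions between D and C. Sla2 had 16.1, 17.6 and 17.4 RPKM in D, 22.6, 21.9 and 21.7 RPKM in C, 21.0, 18.4 and 16.4 RPKM in B, and 17.4, 20.5 and 21.7 RPKM in A. Its C libraries lay above all D and all B libraries, and its mean was 17.0 ± 0.802 RPKM in D and 22.1 ± 0.512 RPKM in C (SD, n = 3 each), 22.9% lower in D. Sla had 35.1, 36.7 and 36.0 RPKM in D, 32.5, 32.9 and 33.8 RPKM in C, 32.7, 35.5 and 35.9 RPKM in B, and 35.0, 33.4 and 33.3 RPKM in A. The D libraries lay above all C and all A libraries, by a small margin: the means were 35.9 ± 0.814 RPKM in D and 33.1 ± 0.664 RPKM in C (SD, n = 3 each), 8.66% higher in D.

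The ratio of Sla to Sla2 within a library removes the scaling of the library. It was 2.18, 2.09 and 2.08 in D, 1.44, 1.50 and 1.56 in C, 1.56, 1.93 and 2.19 in B, and 2.01, 1.63 and 1.54 in A. The ratio was 1.41-fold higher in D than in C and 1.24-fold higher in D than in A, each with a two-sided exact permutation p of 0.1, the smallest that 3 libraries against 3 can give. For the other 4 pairs of populations the exact permutation p was 0.2 or more. A ratio within a library shows unequal change and not which gene moved. Sla lies within the thyroglobulin gene Tg on the opposite strand in GENCODE M21, and Sla2 shares 1107 bases with Rab5if (listed as 1110008F13Rik), also on the opposite strand, and the sources used here do not say whether strand was used in the counting. The listed 1110008F13Rik had 9.18 to 11.5 RPKM and a D minus C log2 difference of -0.07 (limma adjusted p = 0.685), and Tg was not analysed here.

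The DOK scaffolds were not lower in D. Dok2 had 39.1, 47.0 and 51.1 RPKM in D, 35.4, 43.9 and 38.4 RPKM in C, 46.2, 48.0 and 42.6 RPKM in B, and 39.0, 40.04 and 33.6 RPKM in A. The D and C libraries overlapped, though within each of the 3 mice D was above C, and all 3 B libraries lay above all 3 A libraries. Its largest log2 difference was 0.28 ± 0.10 (SE) for B minus A (limma adjusted p = 0.139), and this was 0.16 with the GC and length trend removed (adjusted p = 0.493). For D minus C it was 0.22 ± 0.10 (adjusted p = 0.302), and 0.13 without D3. Dok1 had 5.18, 5.13 and 5.03 RPKM in D, 4.44, 4.60 and 4.47 RPKM in C, 4.79, 3.97 and 5.41 RPKM in B, and 5.41, 4.87 and 4.65 RPKM in A. The D libraries lay above the C libraries, and B spanned both. Dok1 rested on only 105 to 156 reads per library, against 364 to 760 for Dok2, and its D minus C difference was 0.17 ± 0.10 (adjusted p = 0.406). Dok2 shares 593 bases with Xpo7 on the opposite strand, and Xpo7 had 5.49 to 6.22 RPKM.

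Between the Ly6Cneg populations D and C, which differ in the GFP gate but whose Ly6c1 levels did not overlap either, Pag1, Sit1 and Sla2 were lower in D in 3 of 3 mice, and Sla, Dok1 and Dok2 were higher in 3 of 3. For 5 of the 7 genes the D and C libraries did not overlap (Pag1, Sit1 and Sla2 lower, Sla and Dok1 higher), against 24.0% of all genes tested (14.1% higher in D and 9.89% lower). In the limma fit to all 12 libraries none of the 7 passed an adjusted p of 0.05, against 0.00998% of all genes tested. The log2 difference was -0.40 ± 0.13 (SE) for Sit1 (adjusted p = 0.137), -0.37 ± 0.09 for Sla2 (adjusted p = 0.106), -0.22 ± 0.08 for Pag1 (adjusted p = 0.179) and 0.12 ± 0.05 for Sla (adjusted p = 0.213). These 4 had an unadjusted p under 0.05, as had 18.1% of the genes tested. The median log2 difference was -0.02 over the 7 genes and 0.01 over all genes tested.

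When the D and C libraries were fitted alone, Sit1 and Sla2 fell in D, 2 of 7 genes against 4.8% of all genes tested in either direction and 1.45% lower in D. The adjusted p was 0.0173 for Sit1 and 0.0112 for Sla2, and Pag1 missed the threshold (adjusted p = 0.0809). With each of the 6 libraries left out of that fit in turn, Sla2 remained called in 6 of 6 fits (limma adjusted p of 0.00968 to 0.0496, with 2.01% to 6.5% of all genes called), whereas Sit1 lost its call without D1 (0.0779), D3 (0.0901) or C2 (0.0708). Without C3, the library with plasma cell genes, the log2 difference was -0.45 for Sit1 (adjusted p = 0.00520), -0.38 for Sla2 (0.00968) and -0.26 for Pag1 (0.0317), with 6.5% of all genes called. In the fit of the D and C libraries with the mouse number as a block, Sit1 and Sla2 were again the 2 genes called, against 6.4% of all genes. With the GC and length trend removed instead of a block, Pag1 was called with them (adjusted p = 0.0465), against 6.07% of all genes. With the libraries labelled A1 and B1 left out of the larger fit, Sit1 (adjusted p = 0.00428), Sla2 (0.00400) and Pag1 (0.0283) fell in D, against 7.63% of all genes tested. Over every alternative run, the D minus C log2 difference ranged from -0.47 to -0.36 for Sit1 and from -0.39 to -0.33 for Sla2. Changing only the filter, the trend, the moderation, the mouse block or the B and A libraries used cannot move this estimate. Such runs stayed at -0.40 for Sit1 and -0.37 for Sla2, and only their p-values could differ.

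**Figure D2:**
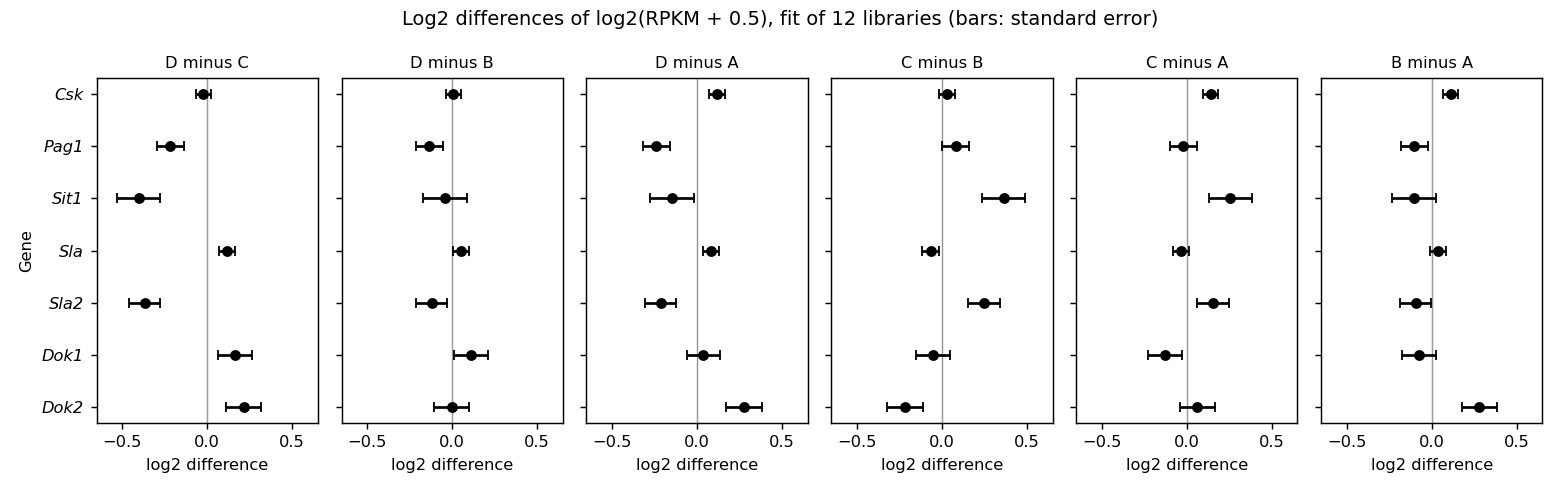
Log2 difference on the log2(RPKM + 0.5) scale, with its standard error, of each of the 7 genes in the 6 pairs of populations, from the limma fit to 12 libraries. Sit1 (-0.40) and Sla2 (-0.37) lie farthest below 0 in D minus C, and none of the 7 genes passed an adjusted p of 0.05 in any pair.

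B and A are both labelled Ly6C+ and differ in the GFP gate, but their Ly6c1 levels did not overlap either. Ly6c1 had 37.1 to 50.2 RPKM in B and 58.1 to 72.6 RPKM in A. Between B and A, the libraries of Csk and Dok2 did not overlap and both were higher in B, 2 of 7 genes against 29.2% of all genes tested. None of the 7 passed the test in the fit to 12 libraries, against 2.23% of all genes tested, and Csk and Dok2 had an unadjusted p under 0.05, as had 23.1% of genes. The share of genes called was 0.02% with the mouse number as a block. Sit1 differed by -0.11 ± 0.13 (adjusted p = 0.652), Pag1 by -0.10 ± 0.08 (0.454) and Sla2 by -0.09 ± 0.09 (0.565), each lower in B in 2 of 3 mice. Mouse 1, the source of the libraries labelled A1 and B1, was the exception for all 3 genes. Without those libraries Sit1 differed by -0.37 (limma adjusted p = 0.0186), Pag1 by -0.26 (0.0284) and Sla2 by -0.27 (0.0409), 3 of 7 genes against 10.9% of all genes tested. For these genes A1 stood with B2 and B3, and B1 with A2 and A3. Leaving out the libraries that go against a difference favours a larger one, so these p-values are no independent test of it. Whether D minus C differed from B minus A was tested directly in the same fit, and none of the 7 genes passed, nor did any of the genes tested. None of the 7 genes and 15.0% of all genes had an unadjusted p under 0.05 in that test, and the lowest adjusted p among the 7 was 0.348, for Sla2 (-0.27 ± 0.13).

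D minus A compares the extremes of the GFP range, and these populations also differ in the Ly6C gate. In this pair Pag1 was lower in D and Csk and Sla were higher without overlap, 3 of 7 genes against 25.8% of all genes tested. Pag1 differed by -0.24 ± 0.08 (limma adjusted p = 0.175) and Sla2 by -0.21 ± 0.09 (0.238), and none of the 7 passed, against 0.00998% of genes. Csk, Pag1, Sla2 and Dok2 had an unadjusted p under 0.05, as had 19.0% of genes. Without the libraries labelled A1 and B1 the adjusted p was 0.00906 for Pag1 and 0.0211 for Sla2, 2 of 7 genes against 8.84% of genes. When the D and A libraries were fitted alone without A1, Pag1, Sit1 and Sla2 were called, against 13.6% of genes. C and B are both labelled GFP-intermediate and were sorted as Ly6Cneg and Ly6C+, but their Ly6c1 RNA ran opposite to those labels, and Nr4a1 had 23.4 to 28.3 RPKM in C, against 64.6 and 73.3 RPKM in B3 and B2. In that pair Sit1 was higher in C by 0.36 ± 0.13 (adjusted p = 0.287) and Sla2 by 0.25 ± 0.09 (0.294). Sla2 was the 1 gene of 7 without overlap, against 15.1% of all genes, and none of the 7 passed, against 0.00998% of genes. Sit1 and Sla2 had an unadjusted p under 0.05, as had 13.4% of genes. Without A1 and B1 the differences were 0.53 for Sit1 (adjusted p = 0.00159) and 0.34 for Sla2 (0.0126), 2 of 7 genes against 7.74% of genes, and without B1 alone Sit1 passed (0.0273), against 3.85% of genes. These pairs share libraries with the pairs above and are not independent of them. For Pag1, Sit1 and Sla2, A1 stood with D and B1 with C, so the fits without A1 or B1 carry the same limit as in B minus A.

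In C minus A, Csk and Sit1 were higher and Dok1 was lower without overlap, 3 of 7 genes against 17.9% of all genes. None of the 7 passed, against 0.0% of genes, and only Csk had an unadjusted p under 0.05, against 14.2% of genes. In D minus B the libraries of all 7 genes overlapped, against 11.0% of genes that did not overlap. The lowest adjusted p among the 7 was 0.958, none had an unadjusted p under 0.05, as had 4.09% of genes, and 0.0% of genes were called. In the F test over the 4 populations none of the 7 passed, against 0.00998% of genes. Csk, Pag1, Sit1, Sla2 and Dok2 had an unadjusted p under 0.05 there, as had 21.7% of genes. The lowest adjusted p was 0.149, for Sla2. Without A1 and B1 the F test called Sit1 (0.00326), Sla2 (0.00685) and Pag1 (0.0166), against 9.63% of genes.

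Ordered by level, the 12 libraries fell into the same 6 and 6 for 4 of the members. The 6 lowest libraries for Pag1, Sit1 and Sla2, and the 6 highest for Sla, were D1, D2, D3, B2, B3 and A1. These are also the 6 libraries with the most Nr4a1, at 57.7 RPKM and above, against 36.0 RPKM and below in the other 6. The same 6 libraries stood at one end for 9.37% of all genes tested, as the highest for 6.2% and as the lowest for 3.17%. They supplied 5 of the 6 highest libraries for Dok1, 4 for Dok2 and 3 for Csk. Foxp3 RNA had 3.25 to 4.00 RPKM in these 6 libraries and 1.15 to 1.53 RPKM in the other 6. The 2 proliferation markers Mki67 and Top2a summed to 4.71 to 7.18 RPKM in these 6 libraries and to 1.82 to 3.29 RPKM in the others except C3, which had 24.3 RPKM. Cd8b1 had 9.94 to 13.3 RPKM in these 6 libraries and 11.5 to 16.0 RPKM in the others. Klrd1 had 6.70 to 16.4 RPKM in these 6 libraries and 12.0 to 17.0 RPKM in the others. The part of these markers in the order was not tested.

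**Figure D3:**
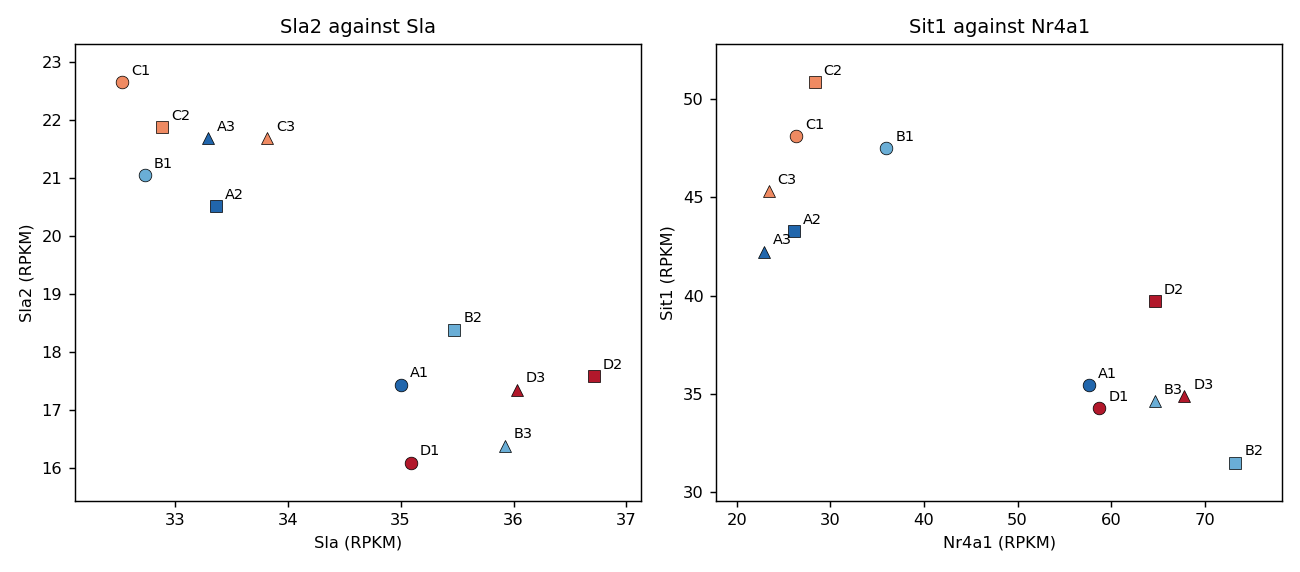
Level of Sla2 against Sla (left) and of Sit1 against Nr4a1 (right), all in RPKM on axes that do not start at 0, with a labelled point per library coloured by population D, C, B or A and shaped by mouse. D1, D2, D3, B2, B3 and A1 have Sla2 of 16.1 to 18.4 RPKM and Nr4a1 of 57.7 RPKM or more, and the other 6 libraries have Sla2 of 20.5 RPKM or more and Nr4a1 of 36.0 RPKM or less.

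Across the 12 libraries Pag1, Sit1, Sla2 and Sla paired off in the same way. On log2(RPKM + 0.5), Sit1 and Sla2 had a Pearson r of 0.87 (Spearman rho 0.84), Pag1 and Sla2 an r of 0.81 (rho 0.69), and Pag1 and Sit1 an r of 0.73 (rho 0.66). Sla ran opposite to them, with an r of -0.94 with Pag1 (rho -0.87), -0.88 with Sla2 (rho -0.80) and -0.82 with Sit1 (rho -0.78). Among the pairs with other members, Csk and Dok2 had an r of 0.62 (rho 0.45), and Sla2 and Dok1 an r of -0.61 (rho -0.78). The points share mice and populations, so the values are a description of 12 libraries with no test. Among 7539 genes averaging 5 RPKM or more, those most like Sit1 were Il4ra (r = 0.98), a cytokine receptor chain, and Selplg (0.96), a selectin ligand. The most like Sla were Ptpn11 (0.97), the phosphatase SHP2, Ptms (0.96) and Stmn1 (0.96), and the most like Dok2 were Lat (0.97), the central TCR scaffold, Parp3 (0.96) and Pold1 (0.96). For Sla2 they were Rgmb (0.96), Sh3bp5 (0.96) and Ggt5 (0.95), and for Pag1 Acvrl1, Smarca2 and Dopey1 (0.95 each). For Csk they were Ube2o (0.95), Slc9a3r1 (0.93), which links PAG1 to the cytoskeleton, and Atp5d (0.93), and for Dok1 Gng10 (0.88), Mrps31 (0.85) and Kif1bp (0.81).

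Of 12 partners that the adaptors bind or recruit, 3 rose and none fell in D against C when those 6 libraries were fitted alone, against 3.35% of all genes higher in D. Ptpn22, a phosphatase that binds Csk, had 77.8, 79.98 and 78.9 RPKM in D and 62.7, 61.9 and 59.9 RPKM in C, a log2 difference of 0.36 (limma adjusted p = 0.00267). Rasa1, the RasGAP that DOK proteins recruit, had 36.6, 36.9 and 36.1 RPKM in D and 27.8, 24.2 and 25.8 RPKM in C, a difference of 0.49 (adjusted p = 0.00283). Cblb, a ubiquitin ligase that restrains T cell activation, had 25.7, 25.6 and 24.9 RPKM in D and 20.2, 19.3 and 19.4 RPKM in C, a difference of 0.36 (adjusted p = 0.00623). The libraries of these 3 genes did not overlap. In the fit to 12 libraries none of the 12 partners passed, with an adjusted p of 0.126 for Ptpn22, 0.106 for Rasa1 and 0.111 for Cblb. Ptprc, the phosphatase CD45 that opposes Csk on Lck, differed by 0.22 (adjusted p = 0.0897 in the 6 libraries, and 0.0444 with the mouse number as a block). Cbl itself differed by 0.11 (adjusted p = 0.272), and Inpp5d, encoding SHIP1, by 0.07 (adjusted p = 0.636). The adaptor Nck1 fell in B against A in the fit of those 6 libraries, by 0.25 on the log2 scale (adjusted p = 0.0480), against 3.18% of all genes lower in B. Its adjusted p was 0.0969 in the fit to 12 libraries and 0.154 with the mouse block.

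Among the kinases and receptor parts on which the adaptors act, 1 of 10 tested genes rose in D against C in the fit of 6 libraries and none fell, against 3.35% of all genes higher and 1.45% lower. Fyn, a Src kinase restrained by Csk, had 142, 144 and 146 RPKM in D and 119, 123 and 107 RPKM in C, a log2 difference of 0.31 (limma adjusted p = 0.0211, and 0.106 in the fit to 12 libraries). The D libraries lay above all C libraries. Lck, the other Src kinase, differed by 0.06 (adjusted p = 0.667 in the 6 libraries), Zap70, the kinase that docks on phosphorylated receptor chains, by 0.26 (0.0554, and 0.0419 with the mouse block), and Lcp2, the adaptor SLP-76, by 0.14 (0.249). Of 7 related adaptors and kinases tested, none passed in the fit of 6 libraries, against 4.8% of all genes. The nearest were Matk, a kinase related to Csk, at 0.31 (adjusted p = 0.0674) and Trat1, a transmembrane adaptor of the TCR complex, at -0.29 (0.0741), followed by Sh2d2a at 0.11 (0.437). The median log2 difference was 0.10 for the partners, 0.06 for the kinases and receptor parts and 0.10 for the related adaptors, against 0.01 for all genes tested. Without the libraries labelled A1 and B1, Ptprc and Zap70 also rose in D, Trat1 fell and Matk rose (limma adjusted p of 0.0150 to 0.0306). In that fit 7.63% of all genes tested were called in either direction.

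**Figure D4:**
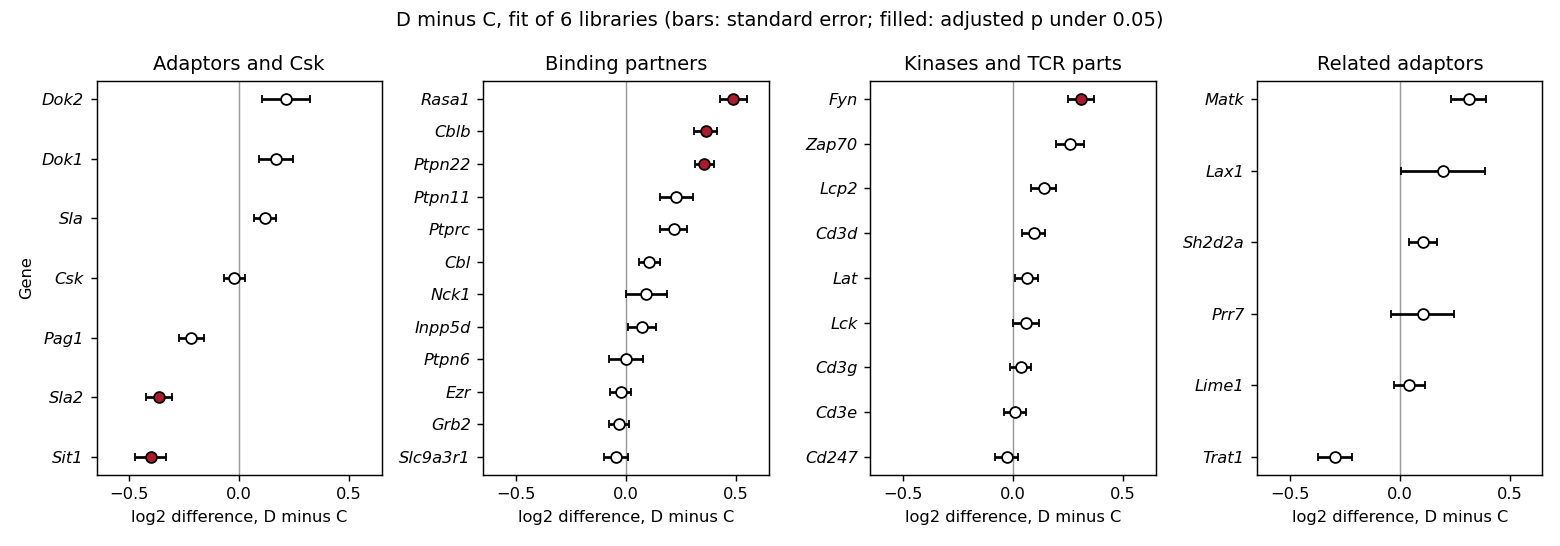
Log2 difference, D minus C, with its standard error, for the 7 genes, their partners, 9 of the 10 kinases and receptor parts and the related adaptors, in the fit of the 6 D and C libraries, leaving out Dok3, which had 6.83 RPKM in C3 and 0.515 to 1.89 RPKM in the other 11 libraries, and with filled points for an adjusted p under 0.05. Sit1 and Sla2 lie at -0.40 and -0.37, while Rasa1 lies at 0.49, Cblb and Ptpn22 at 0.36 and Fyn at 0.31.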

How the data were processed

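The authors deposited 1 table of RPKM values with a column per library, per the file headers, listing 10073 genes with an Entrez identifier and a length. The submitters' processing notes name STAR and the builds mm9 and mm10. The sources used here do not give the counter, the annotation or the use of strand. Per the labels' protocols, cells were sorted into lysis buffer and polyadenylated RNA was amplified with SMART-seq v4 and made into libraries with NexteraXT. Depth was recovered by finding the factor that turns RPKM times length into whole reads, which held within 0.1 read for 100.0% of 8797 to 9376 values in each library.

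The labels gave each library its population and mouse. Of the listed genes, 10021 averaged 0.5 RPKM or more, all 7 members included, and were tested on log2(RPKM + 0.5) in all 12 libraries by limma 3.58.1 (R 4.3.3) with its mean-variance trend. Changes of low genes are understated on this scale. Each comparison had its own Benjamini-Hochberg adjustment, with a threshold of 0.05. Differences are signed as the first population minus the second. Within-library ratios were compared by two-sided exact permutation tests, 6 in the family. As a check on simulated data, D against C was drawn for 10020 genes, where 99% of 100 genes changed by 1 on the log2 scale and 67% of 100 genes changed by 0.5 were called, beside 4 unchanged genes. The simulation gave every gene the same spread beyond read sampling, and no library that stood apart as A1, B1 and C3 did. Its shares therefore do not give the power of the fits to the real libraries. Python 3.11.15 with numpy 2.4.6, pandas 2.3.3 and matplotlib 3.10.9 was used for the rest.

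The labels give libraries of 1 number to 1 mouse. Checked on deviations from the population means, the 18 same-numbered pairs had a mean correlation across genes of -0.072, against 0.032 for pairs of different number. The mouse number was fitted as a block as an alternative. Promoter sequences are from RefSeq. Overlaps with other genes and transcript GC content (found for 98.3% of the genes tested) came from GENCODE M21, with no coordinates of the deposited table involved. The members, the 3 gene lists and the marker lists were chosen with earlier results of these data known. From each list up to 4 genes with the smallest p in D minus C, and any called in another pair, were named, and other list genes are given by choice after their values were seen. For each member the 3 genes with the highest Pearson r are named. Of the genes due, 1 list gene and 1 of those most like a member are not reported here.

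The alternatives were pseudocounts of 0.1 and 1, a filter of 5 RPKM or none, quantile normalization, rescaling to the median, the 6 compared libraries fitted alone, the mouse block, no trend, robust moderation, leaving out each library, leaving out A1 and B1, and limma-voom on the recovered reads. Those chosen after seeing the data were removing a GC and length trend from each library, the mouse block in the fits of 6 libraries, and leaving out each library in those fits. The run without A1 and B1 was listed before the fits, but it was not blind to the data. These libraries were singled out by their values, among them Nr4a1 at 57.7 RPKM in A1 and 36.0 RPKM in B1.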

Additional observations from a re-analysis of the deposited data

How the results depend on the processing

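In D minus C, none of the 7 genes passed with all 12 libraries (1 of 10021 genes). With the 6 libraries compared alone 2 passed (481 of 10021 genes), and 2 there with the mouse number as a replicate block (641 of 10021 genes). In the fit of those 6 libraries with the GC and length trend removed 3 passed (598 of 9846 genes). Leaving out 1 library gave 0 to 2 with all populations fitted (2 without B1, where 398 of 10021 genes were called, and 1 without A1, with 288). It gave 1 to 3 with D and C fitted alone, where 2.01% to 6.5% of all genes were called. Without A1 and B1 the number was 3 in D minus C (7.63% of all genes called), 3 in B minus A (10.9%) and 2 in D minus A (8.84%). It was 2 in C minus B (7.74%) and 3 in the F test (9.63%). With 1 library left out the range was 0 to 3 in D minus A, 0 to 1 in C minus B and 0 to 1 in the F test. In C minus B the 1 came without B1, where 3.85% of all genes were called, or 2.88% with C and B fitted alone. In the F test it also came without B1, beside 401 genes in all. The 3 in D minus A (Pag1, Sit1 and Sla2) came from the D and A libraries without A1, where 13.6% of all genes were called. C minus A, D minus B and the difference of steps had 0 throughout. The mouse block changed no call of the 7 genes in the fit to 12 libraries, with an adjusted p of 0.198 for Sla2 and 0.213 for Sit1 in D minus C, and limma-voom gave 0.0828 and 0.108. Differences near 0 changed sign: Csk in D minus C was 0.00068 without D1 and 0.0024 without C3 (lowest -0.056, without C1), Csk in B minus A was -0.021 with the GC and length trend removed, and Sit1 in B minus A was 0.014 without B2 (lowest -0.37, without A1 and B1). The cause was not tested. With 3 libraries a group, p-values rest on the spread between these libraries. In the fit to 12 libraries that spread is pooled over all populations, so the B and A libraries enter the D minus C test. Sit1 had an SD of 3.00 RPKM in D, 2.78 RPKM in C, 8.49 RPKM in B and 4.27 RPKM in A. Fits without the mouse block treat the libraries of a mouse as independent. Dok1, at 105 to 156 reads, left the test under the 5 RPKM filter.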

Other observations

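Among the related adaptors, Dok3 and Lax1 had their highest level in the library C3. Dok3, an inhibitory adaptor best known from B cells, had 6.83 RPKM in C3 and 0.515 to 1.89 RPKM in the other 11 libraries. Lax1, a transmembrane adaptor of T and B cells, had 69.8 RPKM in C3 and 38.6 and 43.0 RPKM in C1 and C2. In D, Lax1 had 50.7, 57.9 and 59.6 RPKM, so that it lay above C1 and C2 and below C3. The plasma and B cell markers of C3 stood apart in the same library, and their part in these values was not tested. Both genes were singled out after their values were seen.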
